A study of Danio rerio with 32 samples.

Results

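Mitochondrial ribosomal proteins are made from nuclear genes, imported into mitochondria and assembled with the mitochondrial ribosomal RNAs into a small subunit, which reads the messenger RNA, and a large subunit, which joins the amino acids. These ribosomes translate only the few messenger RNAs encoded by mitochondrial DNA, all for subunits of the respiratory chain and ATP synthase. Subunits were assigned by symbol here, with mrpl taken as the large and mrps as the small subunit. In mammals mrps18a and mrps30 lie in the large subunit despite their names. Genes were taken as members when the symbol began with mrpl or mrps followed by a digit. The rule used no expression value and gave 75 members among 32519 genes, 47 of the large and 28 of the small subunit by symbol.

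The series follows Adar, an enzyme that changes adenosine to inosine in double-stranded RNA, in zebrafish embryos. At 12 hours post fertilization (hpf), 3 groups of whole embryos of the wild-type strain ABTL were compared with 3 libraries each. Control embryos were not injected, Adar KD embryos had received 1 ng of a morpholino that blocks translation of adar, and Adar OE embryos had received 50 pg of adar mRNA. Each library came from 20 pooled embryos, all offspring of a single mating pair, and no group of embryos with a control injection was analysed here, so injection itself cannot be told apart from Adar KD or Adar OE. RNA was depleted of ribosomal RNA and not selected for poly(A), and the embryo pools were the replicates. The counts of single libraries were recovered from the deposited means of the 3 pairwise tables. Within a group, libraries were called A, B and C from the smallest to the largest size factor, and these letters are not the replicate numbers of the labels.

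Reads on genes numbered 584494 to 1055718 in a library, and 17460 to 21229 genes were above 0 in Control, 22810 to 26331 in Adar KD and 26176 to 27526 in Adar OE, so every Control library held fewer than every other library. Genes took 2.54% to 2.86% of the normalized reads of a group and 88.8% to 90.3% fell on no annotated feature. The strand setting of the counting at 12 hpf is not given in the sources used here, so whether the reads counted for a member came from its own strand or from the opposite strand was not tested, and this holds for every count given here. Adar KD library B resembled the Adar OE libraries (mean Pearson r 0.79 over log2 values) more than the Control libraries (0.69), and the other Adar KD libraries most (0.82). Adar KD libraries A and C resembled Control more (0.81 and 0.82) than Adar OE (0.70 and 0.68), and their own group most (0.85 for each). Transcripts of adar itself did not separate the groups. Its normalized counts were 83.4, 78.7 and 324.6 in Control, 89.9, 100.9 and 132.9 in Adar KD and 372.5, 58.1 and 327.4 in Adar OE, and neither Adar KD (log2 difference -0.29, adjusted p = 0.76, limma) nor Adar OE (0.53, adjusted p = 0.46) passed the test. The translation-blocking morpholino need not change the transcript, but Adar OE library B held less adar than any Control library, so adar checked no label and directions below hold for the libraries labelled Adar OE. Of 17 whole-embryo marker genes with an identifier, 13 were above 0 in all 9 libraries, among them the epidermal keratin krt4 and the neural gene sox19a. Of the germ line markers, ddx4 had a mean of 15.3 and nanos3 one of 0.81.

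Members were read at low depth. The median member had a mean normalized count of 12.4 over the 9 libraries, against 5.54 for all genes above 0, and 72 of the 75 had a mean under 50. Normalized counts are read counts divided by a library's size factor and were not divided by gene length, so the order of the members is one of read depth and not of transcript number. Tests were made for genes with a mean of at least 10, which 48 members passed, 27 of the large and 21 of the small subunit, as 10836 genes did in all. This filter used the mean of all groups together, so a gene near the threshold could pass through a high level in a single group.

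The member with the most reads was mrps25, a small subunit protein found in mitochondria and not in bacteria. Its normalized counts in libraries A, B and C were 348.9, 375.2 and 492.0 in Control, 290.3, 251.3 and 257.8 in Adar KD and 397.7, 332.2 and 315.9 in Adar OE. All 3 Adar KD libraries lay below all Control libraries, and Adar OE overlapped Control. The large subunit protein gene mrpl32 came next with a mean of 162.3. Together mrps25 and mrpl32 took 23.2% to 38.7% of all member reads in a library.

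The small subunit gene mrps10, whose protein has a bacterial counterpart, was spread widely among the controls. It had 27.8, 80.8 and 116.1 normalized counts in Control, 84.2, 178.2 and 157.0 in Adar KD and 70.9, 89.8 and 61.2 in Adar OE. The groups overlapped, and the log2 difference of Adar KD from Control, 0.99 ± 0.38 (SE), had an adjusted p of 0.099.

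The next 3 members by read depth were mrpl30, mrps31 and mrps33, and the groups overlapped for each of them. The large subunit gene mrpl30 had 49.4, 68.5 and 41.2 in Control, 43.3, 44.6 and 43.8 in Adar KD and 40.9, 51.1 and 60.4 in Adar OE. The mitochondrion-specific small subunit gene mrps31 had 40.1, 39.9 and 31.1 in Control, 48.96, 49.6 and 37.97 in Adar KD and 42.1, 37.2 and 31.4 in Adar OE. Its partner in the same subunit, mrps33, had 43.2, 34.8 and 31.1 in Control, 39.8, 38.7 and 24.8 in Adar KD and 32.4, 27.1 and 41.3 in Adar OE. None of these 3 had an unadjusted p under 0.05 in a comparison with Control.

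At the other end, the members with the fewest reads among those tested were mrps26, mrps16 and mrps22, all of the small subunit. The gene mrps26 had 27.8, 6.13 and 7.32 in Control, 9.11, 6.72 and 8.76 in Adar KD and 6.01, 4.65 and 14.5 in Adar OE, so that a single Control library lay far above the rest. For mrps16 the values were 23.2, 18.4 and 7.32 in Control, 13.7, 10.9 and 7.30 in Adar KD and 4.81, 0.77 and 7.65 in Adar OE, the lowest of them resting on 1 read. For mrps22 they were 12.4, 17.4 and 10.97 in Control, 2.28, 10.1 and 13.9 in Adar KD and 7.21, 13.9 and 6.88 in Adar OE. The groups overlapped for all 3.

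The 27 members under the filter had means of 2.56 to 9.45. They were mrpl9, mrpl10, mrpl11, mrpl13, mrpl14, mrpl17, mrpl18, mrpl20, mrpl21, mrpl27, mrpl33, mrpl34, mrpl35, mrpl36, mrpl42, mrpl48, mrpl52, mrpl53, mrpl57 and mrpl58 of the large subunit and mrps2, mrps12, mrps14, mrps23, mrps24, mrps34 and mrps35 of the small subunit. Libraries without a read occurred for 13 members, 12 of them under the filter. The exception was mrps7, singled out after its values were seen, a small subunit protein with a bacterial counterpart. It had 12, 21 and 40 reads in Control, 2, 98 and 62 in Adar KD and 0, 68 and 41 in Adar OE.

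**Figure D1:**
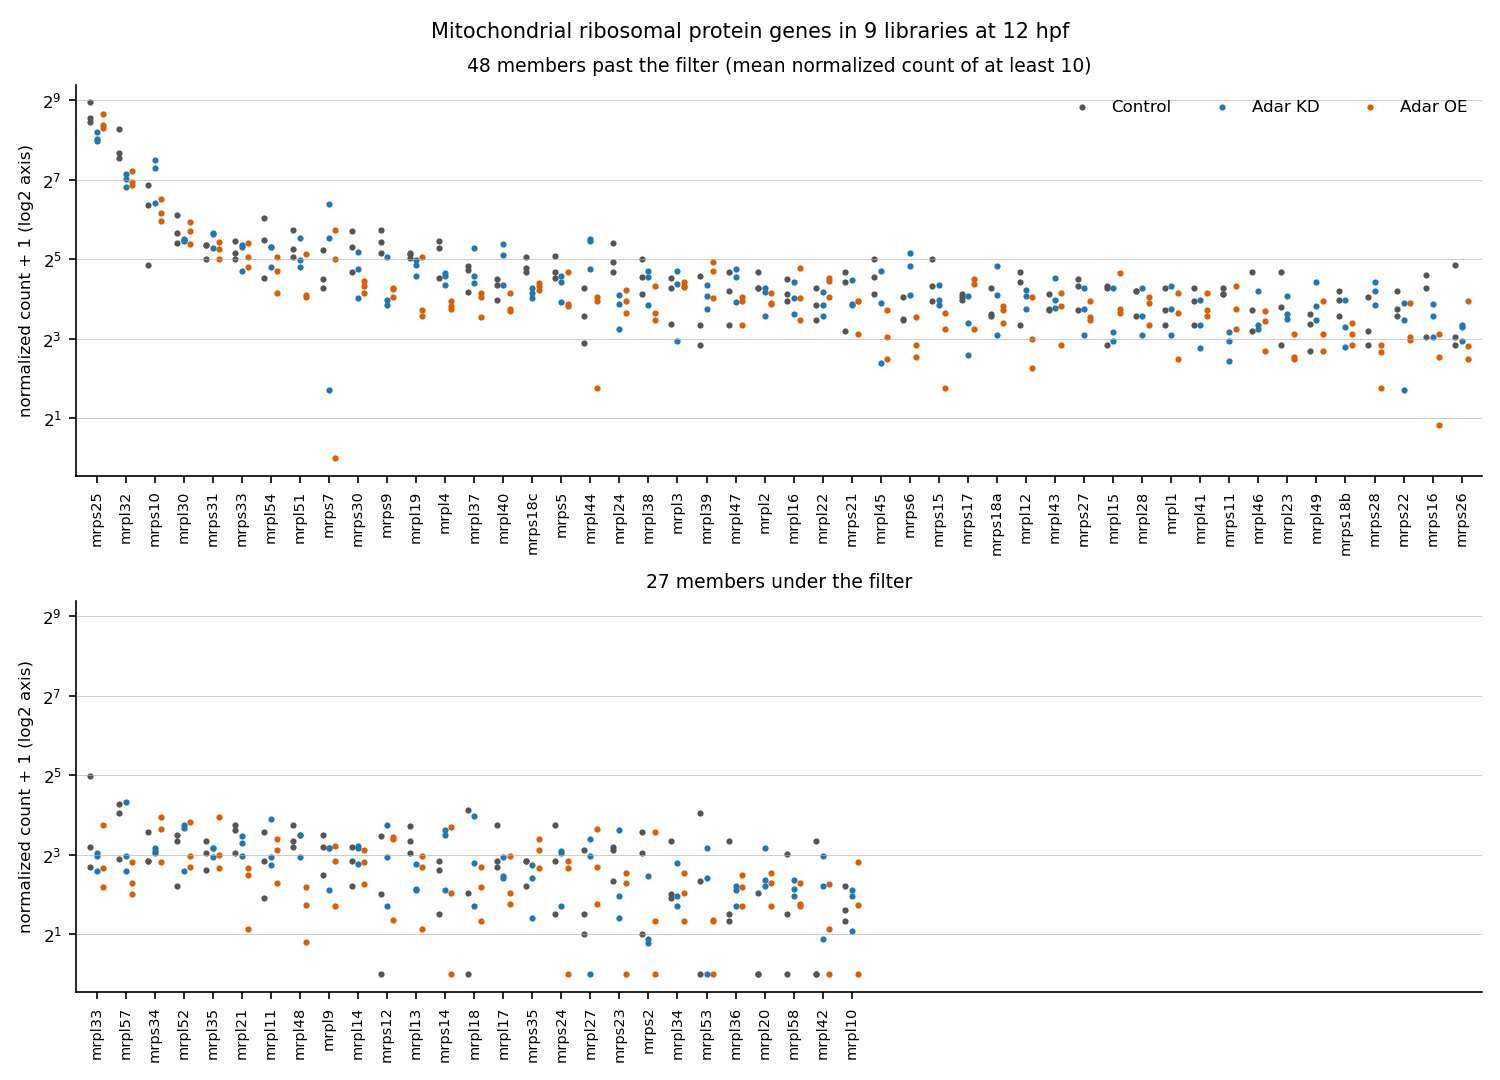
Normalized count plus 1 (log2 axis) of all 75 members in each of 9 libraries at 12 hpf, ordered by mean, with 1 point for each library coloured by group. Points at 1 are libraries without a read; mrps25 and mrpl32 stand above the other members, and for most members the 3 groups overlap.

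For Adar KD against Control, limma with Benjamini-Hochberg adjustment over 10836 genes called 1 member lower and 1 member higher among the 48. Of all genes, 6.86% were called lower and 2.88% higher, so the members called were a share near or under the background. The member that fell was mrpl32 and the member that rose was mrpl44.

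The protein of mrpl32 is a core large subunit protein with a bacterial counterpart, which in yeast and mouse is cut to its mature form by the m-AAA protease of the inner membrane. It had 310.3, 201.4 and 185.6 normalized counts in Control, 140.0, 111.0 and 129.3 in Adar KD and 146.6, 114.6 and 121.6 in Adar OE. All 6 libraries of injected embryos lay below all 3 Control libraries. The level fell from 232.5 ± 67.9 to 126.7 ± 14.7 (SD, n = 3 libraries each), a log2 difference of -0.83 ± 0.26 (SE, 95% interval -1.37 to -0.30, limma adjusted p = 0.044). With library sizes scaled by total count on genes the log2 difference was -0.60 with adjusted p = 0.084, and it passed the threshold in 1 of 9 fits that left out a library.

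The protein of mrpl44 belongs to the large subunit, has no bacterial counterpart in the ribosome and carries a fold related to RNase III in human. It had 10.8, 18.4 and 6.40 normalized counts in Control, 26.2, 44.6 and 43.1 in Adar KD and 2.40, 15.5 and 14.5 in Adar OE. The lowest Adar KD library lay above the highest library of both other groups. The level rose from 11.9 ± 6.1 to 37.9 ± 10.2 (SD, n = 3 libraries each), a log2 difference of 1.79 ± 0.53 (SE, 95% interval 0.70 to 2.88, limma adjusted p = 0.032), which is 3.47-fold. Leaving out any one of Adar KD libraries B and C or the 3 Control libraries brought its adjusted p to between 0.053 and 0.17.

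Among the other 46 members tested in Adar KD, the log2 differences ran from -1.48 for mrps11 to 1.10 for mrps6, both small subunit genes with bacterial counterparts. Without overlap between the groups, 8 members were lower and 2 were higher in Adar KD, against 14.9% of all genes lower and 13.5% higher. An unadjusted p under 0.05 was reached by 16.7% of the members and 24.7% of all genes. The median standard error of a member was 0.47 on the log2 scale. The 95% interval lay within 1 log2 unit of no change for 7 of the 48, so for most members it did not exclude a 2-fold difference. Without Adar KD library B no member was called (limma), 8 of 49 had an unadjusted p under 0.05 and the median was -0.16. None was called without Control library A or without Control library B either (7 with an unadjusted p under 0.05 in each), and 1 was called without Adar KD library C or without any one of the Adar OE libraries, which enter through the shared spread. Calls over all genes fell from 1055 to 712 without Adar KD library B, 712 without Control library A and 625 without Control library B.

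For Adar OE against Control, 4 members were called lower and none higher among the 48. Of all genes, 15.2% were called lower and 9.11% higher, so calls were again no more frequent among members than among genes of all read depths. Among genes of similar read depth, described below, 6.67% were called lower and 11.9% higher on average, against 8.33% and none of the members. The members lower in the libraries labelled Adar OE were mrps9, mrpl4, mrpl19 and mrpl32, all core proteins with bacterial counterparts.

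The gene mrps9 encodes a protein of the small subunit. It had 52.5, 41.9 and 34.8 normalized counts in Control, 14.8, 13.4 and 32.1 in Adar KD and 18.02, 15.5 and 18.4 in Adar OE. Both injected groups lay below all Control libraries. In Adar OE the level fell from 43.1 ± 8.9 to 17.3 ± 1.6 (SD, n = 3 libraries each), a log2 difference of -1.26 ± 0.38 (SE, limma adjusted p = 0.020). In Adar KD the log2 difference was -1.08 ± 0.37 with adjusted p = 0.063.

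The gene mrpl4 encodes a large subunit protein that in bacteria lines the tunnel through which the new chain leaves. It had 43.2, 37.8 and 21.9 normalized counts in Control, 22.8, 19.3 and 24.1 in Adar KD and 13.2, 12.4 and 14.5 in Adar OE. The Adar OE libraries lay below those of both other groups. The log2 difference from Control was -1.23 ± 0.40 (SE, limma adjusted p = 0.030) in Adar OE and -0.53 ± 0.35 (adjusted p = 0.36) in Adar KD. It shares part of its locus with hyls1 in the RefSeq annotation of GRCz12tu. In that annotation 23 of the 75 members overlap another gene, 16 of them among the 48 tested, including mrpl24, mrpl37, mrpl40, mrpl51 and mrps18b, and how reads shared by such pairs were assigned was not tested.

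The gene mrpl19 encodes another large subunit protein. It had 33.97, 31.7 and 34.8 normalized counts in Control, 22.8, 27.7 and 30.7 in Adar KD and 32.4, 10.8 and 12.2 in Adar OE. Adar OE overlapped both other groups, since Adar OE library A was at the Control level and the other Adar OE libraries were low, whereas all Adar KD libraries lay below all Control libraries. The log2 difference was -1.15 ± 0.39 (SE, limma adjusted p = 0.035), and 1 of the 7 other settings that kept all libraries also called it.

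For mrpl32 the values given above gave a log2 difference of -0.83 ± 0.26 (SE, limma adjusted p = 0.026) in Adar OE, the same size as in Adar KD. Genes with about as many reads had a median difference of -0.80 in Adar OE, so that mrpl32 differed from them by -0.03. In Adar KD their median was -0.40 and mrpl32 differed from them by -0.44.

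**Figure D2:**
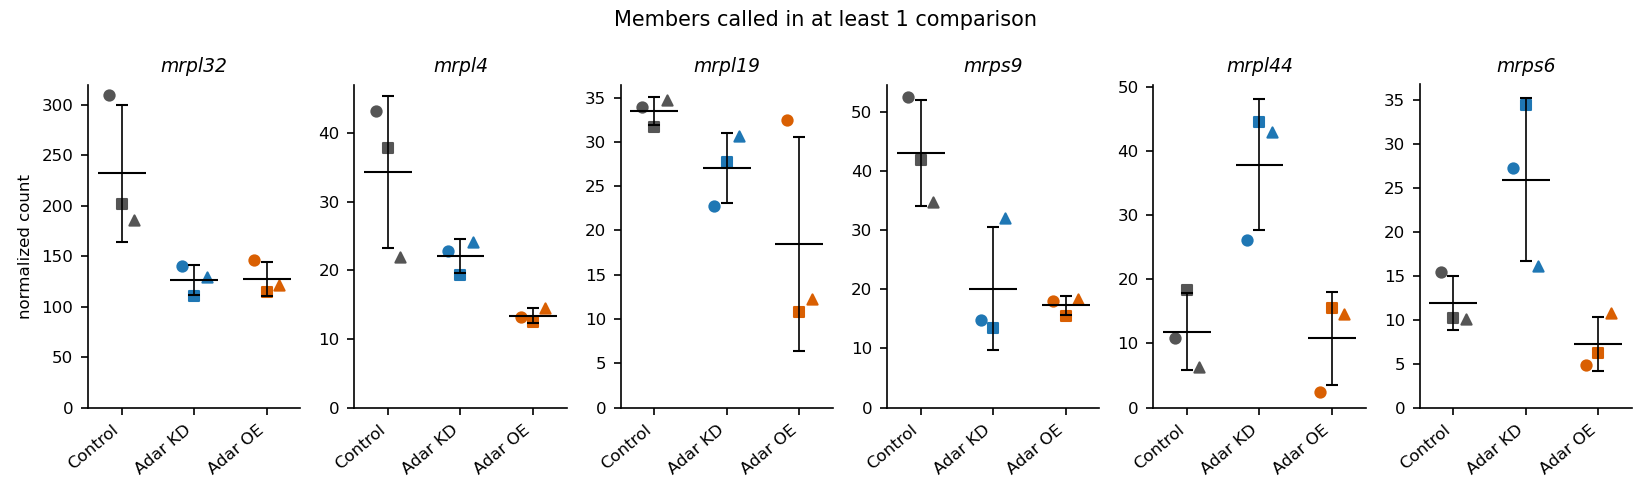
Normalized count (linear axes from 0) of the 6 members called in at least 1 comparison, by group, with 1 point for each library (circle, square and triangle for libraries A, B and C), the mean (long bar) and the SD (error bar, n = 3). The 3 Control libraries of mrpl32 and mrps9 lie above all others, those of Adar KD stand highest for mrpl44 and mrps6, and 1 Adar OE library of mrpl19 lies among the Control values.

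In Adar OE, 11 members were lower than Control without overlap and none was higher, against 26.9% of all genes lower and 20.4% higher. The log2 differences ran from -1.91 for mrps16 to 0.76 for mrpl39, a mitochondrion-specific large subunit gene. Among the tested members mrps16 was one of those with the fewest reads, and its mean, close to the filter, rested most on Control. The 4 calls depended on the scaling: with library sizes from total counts or from the upper quartile no member was called (limma), and 5 and 4 of the 48 had an unadjusted p under 0.05. The calls also depended on single libraries. No member was called without Control library A or B (44 and 45 tested) or without Adar OE library C (48 tested). There 7, 7 and 6 had an unadjusted p under 0.05 (limma). Without Control library C, 8 were called. Over all genes, 1644 were called lower in the main fit and 1095, 1109, 703 and 1544 in these 4 fits, in the order given. With total counts and upper quartiles, 659 and 611 genes were called lower. Without Adar OE library B, the library with little adar, 1 member was called, which was mrpl51, and the median over members was -0.56.

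For Adar OE against Adar KD, which shares its libraries with the comparisons above, 2 members were called lower and none higher. Of all genes, 9.4% were called lower and 7.55% higher. Without overlap, 8 members were lower and 2 were higher in Adar OE, against 19.2% and 16.8% of all genes. The gene mrpl44 was lower by the values already given, with a log2 difference of -1.78 ± 0.54 (SE, limma adjusted p = 0.027), and its difference between Adar OE and Control was 0.01 ± 0.67 (95% interval -1.37 to 1.39).

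The other member lower in Adar OE than in Adar KD was mrps6, a small subunit gene with a bacterial counterpart. It had 15.4, 10.2 and 10.1 normalized counts in Control, 27.3, 34.5 and 16.1 in Adar KD and 4.81, 6.20 and 10.7 in Adar OE. All Adar KD libraries lay above the libraries of both other groups. The mean that took mrps6 past the filter rested most on Adar KD, so its passing was not independent of that high level. The log2 difference between Adar OE and Adar KD was -1.66 ± 0.57 (SE, limma adjusted p = 0.047), and neither group differed from Control past the threshold (1.10 ± 0.48, adjusted p = 0.16, for Adar KD and -0.56 ± 0.65, adjusted p = 0.55, for Adar OE). Without Adar KD library B, 4 members were called lower, mrpl37, mrpl40, mrpl44 and mrps28, and mrps6 had an adjusted p of 0.065. Without Adar KD library C 1 member was called, which was mrps6, and without Control library B 1 was called, which was mrpl44. No member was called without any one of the 3 Adar OE libraries (limma), where 7, 5 and 3 had an unadjusted p under 0.05. Calls over all genes fell from 1837 to 911, 904 and 606 without Adar OE libraries A, B and C.

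Beyond single members, the 48 tested were compared with genes of similar read depth. For each member the reference was the median log2 difference of the 200 genes nearest in mean normalized count that are not members. Among the genes read at this depth the median difference depended on the level. Genes with means from 10 to 20 had medians of 0.33 in Adar KD and 0.50 in Adar OE against Control, and genes with means from 100 to 500 had -0.43 and -0.83. The number of genes above 0 moved with the groups in the same order, and its part in this slope was not tested. The part of the filter, which can let in genes that are high in a single group, was not tested either.

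The 48 members had a median log2 difference of -0.19 in Adar KD, -0.52 in Adar OE and -0.32 between Adar OE and Adar KD, beside -0.02, -0.16 and -0.03 for all tested genes. The median of the members' nearest-gene references was 0.23, 0.39 and 0.23. Members lay below their own reference in 39 of 48 cases for Adar KD, 41 for Adar OE and 36 for Adar OE against Adar KD, with median deviations of -0.36, -0.82 and -0.50. With 100 or 500 nearest genes these deviations were -0.26 and -0.37, -0.80 and -0.79, and -0.48 and -0.49. Single libraries moved the medians of the members by over 1.5 times. In Adar KD the median was -0.39 without Control library C, -0.30 without Adar KD library C, -0.12 without Control library A and -0.12 without Control library B. Between Adar OE and Adar KD it was -0.13 without Adar KD library C and -0.50 without Adar KD library B. The comparisons share libraries and the members are not replicates, so these medians are descriptions without a test.

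Scaling decided the sign of the median in Adar KD, which was 0.03 with total counts and 0.02 with upper quartiles, and left it below 0 in Adar OE at -0.16 and -0.12. Those scalings moved the median of all genes as well, to 0.21 and 0.17 in Adar KD and 0.20 and 0.25 in Adar OE. Set against the median of all genes, members were lower by -0.16 to -0.18 in Adar KD and by -0.36 in Adar OE under the 3 scalings. A change of scaling shifts all genes of a comparison by about the same amount. That these values hardly moved was therefore fixed in advance and is no check on them. As a share of all reads on genes, the 75 members took 19.5 to 21.9 per 10000 in Control, 19.7 to 21.7 in Adar KD and 19.2 to 20.7 in Adar OE, and the groups overlapped. Without mrps25 and mrpl32 the other 73 members took 13.2 to 14.9 in Control, 14.4 to 16.7 in Adar KD and 12.6 to 13.7 in Adar OE, where Adar KD lay above Adar OE without overlap and both overlapped Control.

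**Figure D3:**
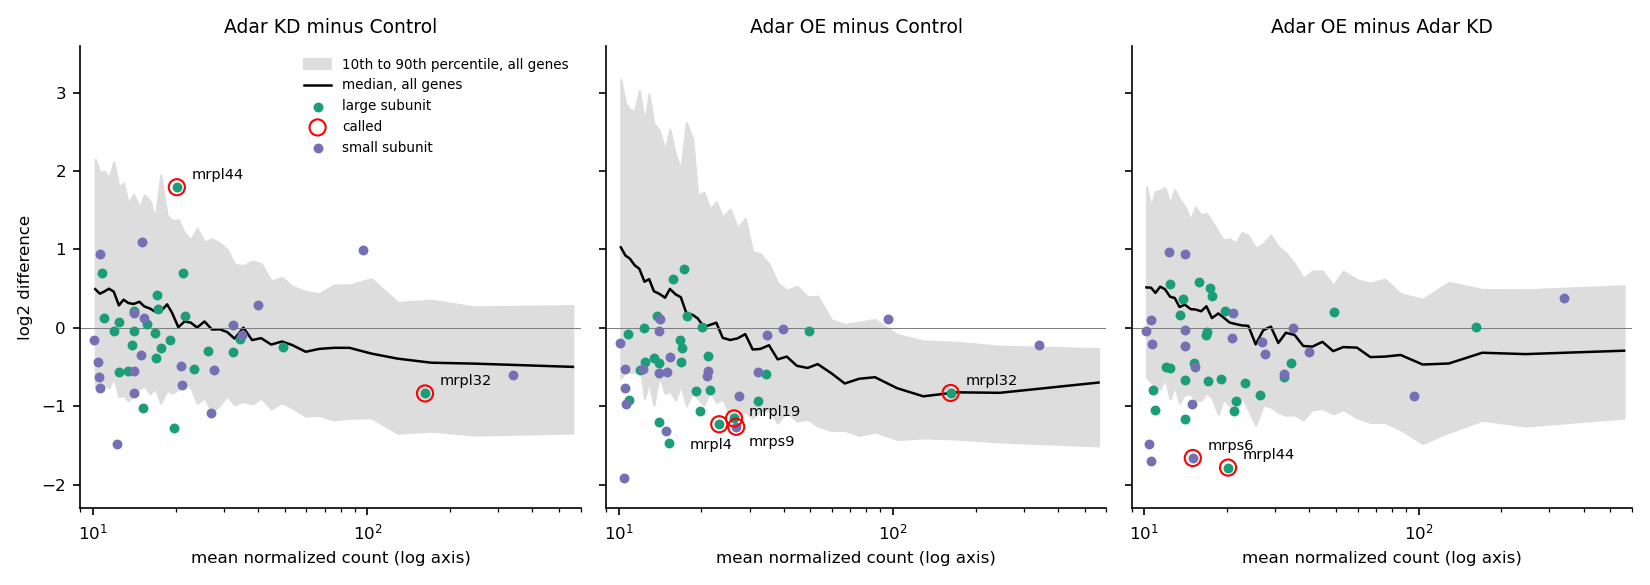
Log2 difference of the 48 tested members against mean normalized count (log axis) in the 3 comparisons, coloured by subunit, with called members circled. The black line is the median and the grey band the 10th to 90th percentile of all tested genes in 40 bins of level; most members with means under 50 lie below the line, most clearly in Adar OE against Control.

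The proportion called was also set beside the nearest genes. On average 3.16% of the 200 nearest genes of a member were called lower and 2.29% higher in Adar KD, 6.67% and 11.9% in Adar OE, and 5.25% and 8.38% in Adar OE against Adar KD. Of the 48 members, 1 was lower and 1 higher, 4 were lower and none higher, and 2 were lower and none higher in the same comparisons. With the trend along the level removed from each gene, 1 member was called lower in Adar OE against Control, which was mrps18b. The mean of mrps18b, close to the filter, rested most on Control. In Adar KD 3 members were called, mrpl24 lower and mrpl44 and mrps10 higher. In Adar OE against Adar KD 3 were called lower, mrpl44, mrps28 and mrps6. With the trend removed, 430 of all 10836 genes were called lower and 362 higher in Adar KD. The counts lower and higher were 204 and 495 in Adar OE, and 639 and 662 in Adar OE against Adar KD.

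By subunit, the 27 large subunit members had median log2 differences of -0.14 in Adar KD and -0.44 in Adar OE, and the 21 small subunit members -0.44 and -0.55. Between Adar OE and Adar KD the medians were -0.50 for the large and -0.20 for the small subunit. Of the large subunit members 3 (11.1%) were called lower in Adar OE, and of the small subunit members 1 (4.76%). Of all genes, 15.2% were called lower there. Moving mrps18a and mrps30, which lie in the large subunit in mammals, left the large subunit medians against Control at -0.14 and -0.44. Between Adar OE and Adar KD the large subunit median was then -0.45.

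By origin, the 27 tested members with a bacterial counterpart had medians of -0.25 in Adar KD and -0.55 in Adar OE, and the 21 mitochondrion-specific members had -0.14 and -0.44. The 4 members called lower in Adar OE all had a bacterial counterpart, and no mitochondrion-specific member was called there (limma, with 3 of 21 at an unadjusted p under 0.05). Those 4 were 14.8% of the 27 tested, beside 15.2% of all genes called lower. Under other settings mitochondrion-specific members were called lower there, such as mrpl51 without Adar OE library B and mrps18b with the level trend removed. As stated above, the mean of mrps18b rested most on Control. These classes were compared by count and median only.

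The mrps18 genes are paralogs, of which mrps18c is the closest to the bacterial protein. It had 26.2, 24.5 and 32.01 normalized counts in Control, 18.2, 16.8 and 15.3 in Adar KD and 19.2, 20.1 and 17.6 in Adar OE, so both injected groups lay below Control, with adjusted p of 0.21 and 0.25 (limma). For mrps18a the values were 18.5, 11.2 and 10.97 in Control, 27.3, 7.57 and 16.1 in Adar KD and 9.61, 13.2 and 12.2 in Adar OE, and the groups overlapped. For mrps18b they were 10.8, 17.4 and 14.6 in Control, 14.8, 5.88 and 8.76 in Adar KD and 9.61, 6.20 and 7.65 in Adar OE, where Adar OE lay below Control (log2 difference -0.97 ± 0.56, adjusted p = 0.20). The gene mrps30 had 50.95, 38.9 and 24.7 in Control, 26.2, 15.1 and 35.1 in Adar KD and 16.8, 20.9 and 19.1 in Adar OE, so that Adar OE lay below Control without overlap (adjusted p = 0.10).

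Other proteins of mitochondrial translation were taken from a list of 61 symbols, of which 58 were in the tables and 32 passed the filter. In Adar KD 2 of the 32 (6.25%) were lower and none higher, and 1 was lower with the level trend removed. In Adar OE none was called (limma voom, with 4 at an unadjusted p under 0.05). There 2 were called higher with total-count or upper-quartile scaling and 1 by limma trend or without a filter. Between Adar OE and Adar KD 1 was lower and 1 higher. Of all genes, 6.86% were called lower and 2.88% higher in Adar KD. The shares were 15.2% and 9.11% in Adar OE, and 9.4% and 7.55% in Adar OE against Adar KD. The 5 mitochondrial ribosome proteins with other names, dap3, gadd45gip1, ptcd3, chchd1 and aurkaip1, were all tested and none was called in any comparison (limma, with 2, 1 and 0 at an unadjusted p under 0.05), with medians of -0.62 in Adar KD and -0.39 in Adar OE.

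The partners that fell in Adar KD were lrpprc, which stabilises mitochondrial messenger RNAs, and iars2, the mitochondrial isoleucyl-tRNA synthetase. The log2 difference was -1.49 ± 0.32 (SE, limma adjusted p = 0.0036) for lrpprc and -1.26 ± 0.28 (adjusted p = 0.0047) for iars2. In Adar OE against Adar KD, iars2 was higher by 1.16 ± 0.28 (adjusted p = 0.0078), and tufm, the mitochondrial elongation factor Tu, was lower by a log2 difference of -1.03 ± 0.34 (adjusted p = 0.040). No partner was called lower there with total-count or upper-quartile scaling, nor without Adar KD library A, Adar KD library C or any one of the Adar OE libraries, so that the call of tufm was lost in each of these. Against Control in Adar OE, lrpprc was at -0.60, iars2 at -0.11 and tufm at -0.72, none of them past the threshold.

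Cytosolic ribosomal protein genes differed from the members in their counts of calls in the main fit. Of 76 tested, 66 were called lower and none higher in Adar KD, and 72 lower and none higher in Adar OE, with medians of -1.36 in both. Their calls lower numbered 56 in each comparison when library sizes were scaled by total counts, and 43 in Adar KD without its library B. With the trend along the level removed, 38 were called lower in Adar KD and 2 in Adar OE. These genes were read more deeply, with a median mean of 122.6 against 16.9 for the members tested, and their nearest genes had medians of -0.37 and -0.78. Their median deviations from the nearest genes were -1.01 in Adar KD and -0.69 in Adar OE, beside -0.36 and -0.82 for the members. The difference between these lists was not tested.

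Nuclear genes of the respiratory chain, read at a median mean of 22.1, are closer to the members in depth. Of 55 tested, 2 were called lower and none higher in Adar KD and 16 lower and none higher in Adar OE, with medians of -0.60 and -0.95. In Adar OE, 5 were called lower when scaled by total counts, 6 with the level trend removed, 4 without Adar OE library C and 25 without Control library C. Their deviations from the nearest genes, -0.66 and -0.80, can be set beside -0.36 and -0.82 for the members, but the difference between the lists was not tested. The 12 mitochondrially encoded protein genes tested, the messages that the members' ribosomes translate, had medians of 0.27 in Adar KD and -0.21 in Adar OE, with 2 lower in Adar OE and none called in Adar KD (limma, with 2 at an unadjusted p under 0.05). They were read at a median mean of 1413, where their nearest genes had medians of -0.49 and -0.71. Their median deviations from the nearest genes were 0.75 and 0.56, opposite in sign to those of the members. In Adar OE against Adar KD their median was -0.51, with 3 called lower (25%, beside 9.4% of all genes). Their median deviation there was -0.23, of the same sign as that of the members, -0.50.

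Whole embryos mix all cell types, and fewer cells of a type and less RNA per cell cannot be told apart. Of 14 marker genes tested, 4 were called lower and none higher in Adar OE and 1 lower and none higher in Adar KD. Their medians were -0.50 and -0.21. Of all genes, 15.2% were called lower and 9.11% higher in Adar OE, and 6.86% and 2.88% in Adar KD. The marker called in Adar KD was tbx16, at a log2 difference of -1.5. In Adar KD 8 of the 14 lay below 0. Above Control without overlap lay foxa2 (log2 difference 2.54, limma adjusted p = 0.064) and noto (2.01, adjusted p = 0.11). Neither was called, and their means, 11.7 and 10.9, were close to the filter and rested most on Adar KD. Below the filter, myf5 had means of 17.4 in Control, 2.56 in Adar KD and 7.59 in Adar OE. Those of myod1 were 13.7, 1.12 and 8.86. For both genes, all Adar KD libraries lay below all Control libraries, without a test. The remaining marker under the filter, nanos3, overlapped between these groups. The part of cell composition in the values of the members was not tested.

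**Figure D4:**
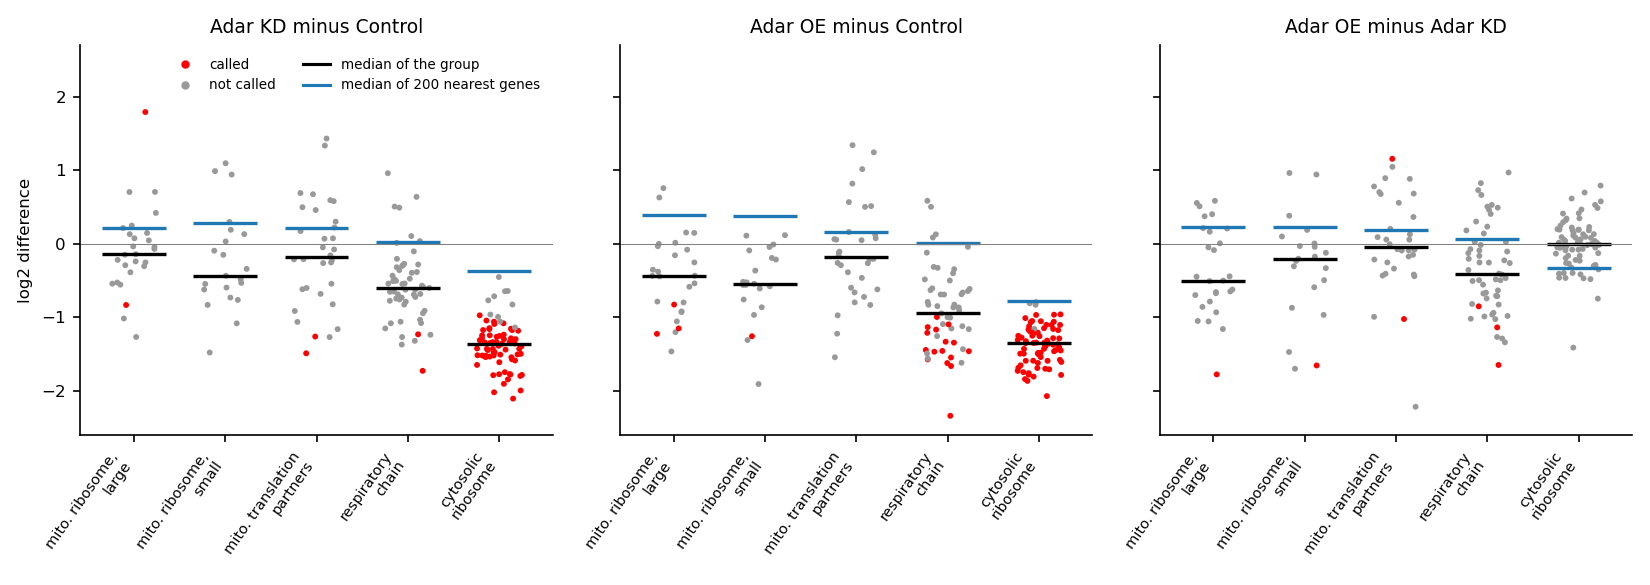
Log2 differences of tested genes (points, red where called at an adjusted p under 0.05) in 5 gene groups for the 3 comparisons, with the median of each group (black bar) and the median of the references from its genes' 200 nearest genes (blue bar). Cytosolic ribosomal protein genes lie lowest against Control with most points red, and the mitochondrial ribosomal protein genes lie below their blue bars with few points red.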

How the data were processed

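The authors made rRNA-depleted libraries with a stranded kit, aligned reads to GRCz10 with STAR 2.7.7a and counted them with HTSeq 0.11.2, and the authors compared groups pairwise with DESeq2 in R 3.6.3. Each of the 3 deposited tables holds the mean of normalized counts of a gene over 6 libraries, a score that the authors computed. Their other columns, the authors' fold changes, standard errors, test statistics and p-values, were not used.

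The deposited means are whole reads divided by library size factors, so the 9 counts of a gene were solved from its 3 means. A unique solution was found for 32509 of 32519 genes, returning the means within a relative error of 7.05e-15. Median-of-ratios size factors computed from the counts differed from those used by at most 9.4e-04. Reads outside genes were left out.

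Counts were fitted with limma 3.58.1 (voom, R 4.3.3; Python 3.11.15 elsewhere) over all 9 libraries, with size-factor scaling and Benjamini-Hochberg adjustment over genes with a mean of at least 10, called at an adjusted p under 0.05. Recovery and fit were tested on simulated data. Embryo pools were the replicates, so p-values measure the spread between pools of 1 mating pair. Symbols matched 29200 gene identifiers. Members and gene lists were chosen with earlier results of these data known. Named with values were the 6 highest and 3 lowest tested members, called members and partners, and the mrps18 and mrps30 genes. The alternatives were 2 other scalings, filters of 0 and 50, limma trend with pseudocounts of 1 and 5, fits on 2 groups, each library left out, removal of the level trend, and 100 or 500 nearest genes. Lists at 7 days and editing sites were not used here.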

Additional observations from a re-analysis of the deposited data

How the results depend on the processing

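No paired analysis was possible because the recovered libraries carry no replicate numbers. The signs of the differences of the 6 called members held under every alternative run for them, and their calls did not. For mrpl32 in Adar OE the difference was near 0 with the level trend removed (-0.03, limma adjusted p = 0.95). The alternatives reuse the same libraries, so they are not independent of the main fit. For Adar KD against Control (2 members called), 1 was called with scaling by total count, scaling by upper quartile, no filter, a mean of at least 50 (3 members tested) or only the compared groups, 3 with the level trend removed, 4 with limma trend and a pseudocount of 5, and 0 to 3 with a library left out. For Adar OE against Control (4 called), 0 were called with either other scaling, 1 with a mean of at least 50 or with the level trend removed, 7 with a pseudocount of 5, and 0 to 8 with a library left out. For Adar OE against Adar KD (2 called), 0 were called with upper-quartile scaling or a mean of at least 50, 1 with total-count scaling or no filter, 3 with the level trend removed, and 0 to 4 with a library left out. Median deviations of members from 100 or 500 nearest genes differed from those with 200 by less than 0.17. That value is the pooled SD over libraries of the median log2 deviation of members. All these settings used the same libraries, so the SD does not measure the effect of this choice. The largest move was in Adar KD, from -0.36 with 200 to -0.26 with 100.

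Calls over all genes numbered 1055, 2631 and 1837 in these comparisons. They were 1823, 8439 and 2167 without a filter, 657, 1228 and 640 at a mean of at least 50, 578 for Adar KD with only the compared groups, 699 for Adar OE with the trend removed, 1211 for Adar OE against Adar KD with a pseudocount of 1, and 625 to 950, 1110 to 3249 and 530 to 2696 with a library left out. Of the calls, 29.6%, 37.5% and 44.5% were higher, against 48.2%, 65.9% and 57.6% with total-count scaling and 45.4%, 70.7% and 66.1% with upper quartiles. The median tested member had 157 reads over all 9 libraries. The cause of these shifts was not tested.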
